A study of Mus musculus with 15 samples.

Results

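Muscle stem cells (MuSCs) obtained by biopsy were compared with whole quadriceps femoris muscle, to describe which genes belonged to the stem cell preparation and which to the tissue. The comparison used the 6 libraries that the labels name as MuSCs before transplantation (mice 5, 6 and 11) or as sham quadriceps (mice 3, 12 and 192), out of 15 in the series. All came from wild-type (WT) mice of strain 129, which the labels give as 10 weeks old and male. The MuSCs had been taken before any transplantation, and the shams had undergone surgery without cells. The treatment entry of the sham libraries nevertheless names transplantation, so they were recognised by their titles. No mouse gave both a MuSC and a sham library, and each library was counted as a separate animal because its title carries a mouse number of its own. Another 3 libraries of MuSCs after autologous transplantation and 6 of transplanted quadriceps served as a second set of the same contrast. The sources used here do not give the muscle that was biopsied, or whether the cells were sorted or grown in culture before RNA extraction.

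MuSCs, or satellite cells, lie between a muscle fibre and its basal lamina and repair the fibre after injury. At rest they express Pax7 and do not divide. Once activated they switch on Myod1, enter the cell cycle, and later express Myog, leave the cycle and fuse. Whole muscle RNA comes mainly from the nuclei of mature fibres, with a part from vessels, fibroblasts, fat, nerve and blood, and satellite cells are a small minority of its nuclei.

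The MuSC libraries held 17094753 to 21255066 estimated counts and the shams 18110838 to 18826277, with 11530 to 12323 and 11759 to 12155 genes at 1 TPM or more. TPM is a transcript level per gene length that sums to the same total in every library. The median gene varied between libraries of a group by 0.32 on the log2(TPM + 1) scale in MuSCs (SD, n = 3) and by 0.19 in shams. MuSC 6 had the fewest genes detected, 18307, against 19747 and 19774 in MuSCs 5 and 11. The 100 most abundant genes took 64.1% to 70.2% of all TPM in sham muscle and 43.7% to 49.6% in MuSCs. Differences below are log2 fold changes, MuSC minus sham, from edgeR on counts with TMM scaling, which centres the bulk of genes and left the median gene at 0.02. Scaling by library total alone put the median gene at 0.79, so differences smaller than that depend on the scaling. Folds given as at least a value, for genes with no count in a group, use library totals and not TMM scaling. MuSC and muscle libraries stand in separate deposited tables, so tissue and table cannot be told apart. Among transplanted quadriceps, which stand in both muscle tables, 21.9% of 13876 genes differed between these tables, and 0.447% at least 4-fold. Xist, the RNA that coats the inactive X chromosome of females, stood at 10.2 to 84.1 TPM in MuSCs and 21.3 to 30.3 TPM in shams, and the Y-linked genes Ddx3y, Eif2s3y, Kdm5d and Uty at no more than 0.16 TPM in any of the 6 libraries, against the label of male.

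Most of the transcriptome differed between the stem cells and the muscle. Of 14548 genes tested, 5113 (35.1%) were higher in MuSCs and 4857 (33.4%) were higher in sham muscle at an adjusted p under 0.05, and the difference was at least 4-fold for 2363 (16.2%) and 2679 (18.4%). With library totals as the scale the split was 7448 higher and 3174 lower (3751 and 1965 at least 4-fold), and with limma on log2(TPM + 1) it was 6862 and 3150 (2416 and 967). Library totals shift nearly all genes by a like amount toward the MuSC side, the median gene from 0.02 to 0.79. A gene of the 4-fold sets could therefore hardly change direction, and none did. Of these sets, 2363 of 2363 and 2580 of 2679 still passed, the former moved further from 0 by the shift. Differences of at least 16-fold were found for 815 genes on the MuSC side and 1382 on the muscle side. At 1 TPM or more in every library of a group there were 11052 genes in MuSCs and 10902 in muscle, of which 9324 were shared. Another 83 genes were at that level in all MuSC libraries with no count in any sham, and 202 the reverse. Every difference called higher or lower below passed this test unless its p is printed. The 35.1% and 33.4% of all tested genes are the shares to set beside the counts of each list below. In bulk RNA, fewer cells of a type and less RNA per cell cannot be told apart.

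**Figure D1:**
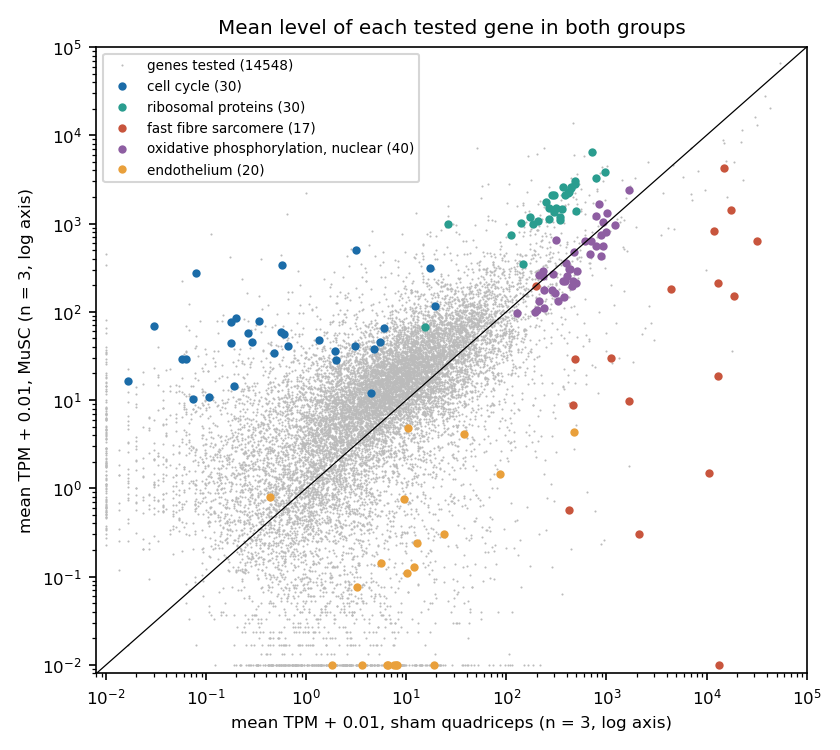
Mean TPM + 0.01 of each of the 14548 tested genes in the 3 sham quadriceps libraries (horizontal, log axis) and in the 3 MuSC libraries (vertical, log axis), with 5 gene lists coloured and the number of genes in brackets. Cell cycle and ribosomal protein genes lie above the line of equal TPM, fast fibre and endothelial genes below it, and genes of oxidative phosphorylation near it.

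The 6 genes chosen as markers followed their labels. Pax7, the transcription factor that defines satellite cells, stood at 21.6, 14.1 and 17.8 TPM in MuSCs 5, 6 and 11, and at 0.26, 0.25 and 0.17 TPM in shams 3, 12 and 192, a difference of 5.29 ± 0.26 (SE). Myf5, a myogenic factor of committed progenitors, read 155, 116 and 153 TPM against 0.81, 0.46 and 0.68 TPM (7.0 ± 0.29). Myod1, the myogenic factor of activated cells, read 918, 819 and 538 TPM against 14.6, 19.9 and 13.4 TPM (4.88 ± 0.35). All 3 MuSC libraries were far above all 3 shams for these genes. Among the MuSC libraries the level of Myod1 exceeded that of Pax7 in each.

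Of the fibre markers, Ckm, the muscle creatine kinase that buffers ATP, stood at 14845, 21518 and 17611 TPM in the shams and at 43.2, 50.7 and 13.2 TPM in MuSCs (-8.87 ± 0.87, and -9.71 without MuSC 6). Myh4, the myosin heavy chain of the fastest (type IIB) fibres, read 9200, 10882 and 11994 TPM against 1.55, 0.60 and 2.32 TPM (-13.65 ± 0.79). Acta1, skeletal muscle alpha-actin, read 19651, 25859 and 23057 TPM in the shams, but was also abundant in MuSCs at 3616, 3964 and 1802 TPM (-3.51 ± 0.51). The 3 fibre genes thus differed by very unequal amounts, and MuSC 11 was lower than MuSCs 5 and 6 for Ckm and Acta1 but not for Myh4.

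**Figure D2:**
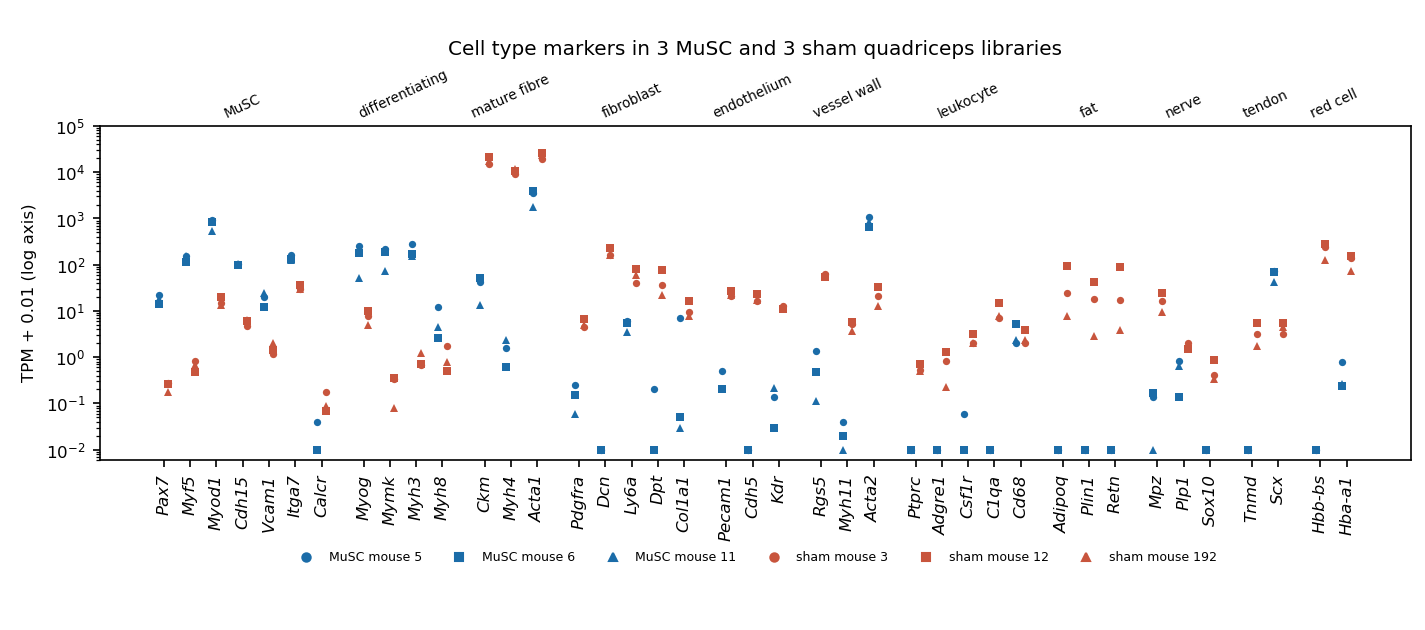
TPM + 0.01 (log axis) of the cell type markers in each of the 3 MuSC (blue) and 3 sham quadriceps libraries (red), with the mouse given by the symbol, so that points at 0.01 stand at 0 TPM. MuSC genes and genes of differentiating cells are higher in every MuSC library except Calcr, and Dcn, Cdh5, Ptprc, Adipoq and Hbb-bs are at 0 in all MuSC libraries.

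The list of stem cell identity genes, which itself holds the markers Pax7 and Myf5, went the same way. Of 15 tested, 14 were higher in MuSCs, 11 of them at least 4-fold, with a median of 2.87, where the median over all genes was 0.02. Cdh15 (M-cadherin, which joins the satellite cell to its fibre) stood at 105, 100.2 and 106 TPM against 4.73, 5.96 and 6.47 TPM (3.45 ± 0.22). Vcam1, a surface molecule used to sort satellite cells, was higher by 2.87 ± 0.22, the laminin receptor subunit Itga7 by 1.81 ± 0.19, and Ncam1, an adhesion molecule of activated and fusing cells, by 5.81 ± 0.29. Itgb1, the shared beta subunit of many integrins, was higher by 1.70 ± 0.27, with MuSC 6 at 184 TPM and MuSCs 5 and 11 at 482 and 464 TPM. Des, desmin, the intermediate filament of muscle, was the member called in the other direction (-0.95 ± 0.35), with overlapping levels of 550 to 920 TPM in MuSCs and 761 to 1003 TPM in shams, and it no longer passed with library totals (-0.21) or when any library but MuSC 6 was left out (-1.01 to -0.71). Calcr, the calcitonin receptor of resting satellite cells, had 1 count in all MuSC libraries together and 12 in all shams, and was too low to test. It was the satellite cell marker that did not follow the label.

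Genes linked to quiescence were mixed. Of 17 tested, 4 were higher in MuSCs, 8 were higher in muscle and 5 did not pass. Over all tested genes, 35.1% were higher in MuSCs and 33.4% in muscle. The median of the list was -0.37, and it turned positive with library totals (0.42) and with TPM (0.37). Pdk4, a kinase that spares glucose, read 30.9, 12.7 and 19.3 TPM in MuSCs and 103, 157 and 205 TPM in shams (-3.68 ± 0.32). Nfix, a factor of later muscle development, was lower in MuSCs by 3.85 on the log2 scale (-3.85 ± 0.21), and so was Rgs5 (-7.27 ± 0.69, and -8.21 without MuSC 5), which pericytes also express. Col5a1, a collagen chain (2.26 ± 0.24), and the Notch target Hes1 (1.82 ± 0.20) were higher in MuSCs. Several members of this list are also genes of vessels or fibroblasts, which whole muscle holds.

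Genes of commitment and fusion stood higher in the stem cell preparation. Of 19 myogenic regulators and differentiation genes, 12 were higher in MuSCs and 4 in muscle, with a median of 2.61. Myog, the factor of cells that leave the cycle, read 254, 184 and 50.7 TPM against 7.85, 10.2 and 4.87 TPM (3.73 ± 0.59). Mymk, the membrane protein Myomaker needed for fusion, read 224, 188 and 74.0 TPM against 0.33, 0.34 and 0.07 TPM (8.89 ± 0.68). MuSC 11 was the lowest of its group for both genes, and still above every sham. Cdkn1a, which stops the cycle as myoblasts differentiate, read 548, 631 and 317 TPM against 20.0, 25.7 and 13.4 TPM (3.98 ± 0.43), and Id3, an inhibitor of myogenic factors, was higher by 4.99 ± 0.39. Against this trend, Mef2c (-4.25 ± 0.29), which sustains fibre genes, and Myf6 (-2.67 ± 0.20), the myogenic factor of mature fibres, were lower in MuSCs. Myf6 nevertheless stood at 14.5 to 19.1 TPM there.

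The list of developmental isoforms, which fibres express while they form, was also higher in MuSCs. Chrna1, Ncam1, Mymk and Dclk1 are counted in it without being such isoforms. Of these, Chrna1, Ncam1 and Mymk stand in other lists too. Of 12 tested, 10 were higher in MuSCs, 9 of them at least 4-fold, with a median of 5.74. Myh3, embryonic myosin heavy chain, read 285, 167 and 153 TPM against 0.66, 0.71 and 1.21 TPM (7.10 ± 0.39). Tnnt2, the troponin T of heart and embryonic muscle, was higher by 5.68 ± 0.29. Acta2, the smooth muscle actin that myoblasts also make, read 1055, 639 and 850 TPM against 21.0, 32.7 and 13.0 TPM (4.59 ± 0.36). The exception was Sln, sarcolipin, which restrains the calcium pump: it had no count in MuSCs and 251 in the shams, at least 86.2-fold lower.

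The acetylcholine receptor was represented by different subunits in cells and tissue. Of 16 genes of the neuromuscular junction, 12 were higher in MuSCs and 4 in muscle. Chrng, the gamma subunit of the fetal receptor, read 260, 211 and 237 TPM in MuSCs and 0.10, 0.17 and 0.38 TPM in shams (9.99 ± 0.40). Chrne, the epsilon subunit that replaces it in the adult receptor, had 1 count over the MuSC libraries and read 10.1, 7.87 and 7.0 TPM in the shams. The groups did not overlap for either subunit. The alpha and delta subunits Chrna1 (6.31 ± 0.28) and Chrnd (6.25 ± 0.30), which both receptors share, were higher in MuSCs, as was Musk, the kinase that clusters receptors (3.47 ± 0.25). Ache, the esterase that ends transmission, was lower (-7.25 ± 0.47), and read -7.94 without MuSC 6.

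Cell cycle genes were the list furthest to the MuSC side. Of 30 tested, 29 were higher in MuSCs, 28 of them at least 4-fold, with a median of 6.21, and no member was higher in muscle. Their summed TPM was 2240 to 2890 in MuSCs and 69.7 to 77.6 in shams. Ccnd1, the cyclin of entry into the cycle, read 503, 454 and 566 TPM against 3.43, 3.48 and 2.46 TPM (6.59 ± 0.31). Rrm2, the ribonucleotide reductase subunit of S phase, was higher by 8.66 ± 0.37 and Cdk4, the partner of Ccnd1, by 3.57 ± 0.26. Cdk1, the kinase of mitosis, read 286, 274 and 262 TPM, with 2 counts in all shams together, and Ccnb1, its cyclin, 78.9, 47.4 and 81.7 TPM, also with 2 counts in the shams.

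Many promoters of cell cycle genes hold the letters CCAAT, a box bound by the factor NF-Y. The sequences below, from RefSeq on build GRCm38.p6, give the 250 bases before the start site, 5′ to 3′ on the gene's strand, for Cdk1, Ccnb1 and Ccnb2, the mitotic kinase and its cyclins, and Top2a, the topoisomerase that untangles chromosomes. Capitals mark CCAAT, or ATTGG where it lies on the other strand.
Cdk1, chr10:69352913-69353162, minus strand: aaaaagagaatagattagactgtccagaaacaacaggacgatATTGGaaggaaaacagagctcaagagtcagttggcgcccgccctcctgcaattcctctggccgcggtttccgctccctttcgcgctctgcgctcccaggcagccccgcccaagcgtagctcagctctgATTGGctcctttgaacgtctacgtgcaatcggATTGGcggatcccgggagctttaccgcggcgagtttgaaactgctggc
Ccnb1, chr13:100786487-100786736, minus strand: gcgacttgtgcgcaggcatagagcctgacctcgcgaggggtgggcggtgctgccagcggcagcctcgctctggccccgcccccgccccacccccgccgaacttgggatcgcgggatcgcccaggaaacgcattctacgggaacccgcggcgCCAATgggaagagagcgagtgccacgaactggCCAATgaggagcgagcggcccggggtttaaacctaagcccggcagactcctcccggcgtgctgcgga
Ccnb2, chr9:70421555-70421804, minus strand: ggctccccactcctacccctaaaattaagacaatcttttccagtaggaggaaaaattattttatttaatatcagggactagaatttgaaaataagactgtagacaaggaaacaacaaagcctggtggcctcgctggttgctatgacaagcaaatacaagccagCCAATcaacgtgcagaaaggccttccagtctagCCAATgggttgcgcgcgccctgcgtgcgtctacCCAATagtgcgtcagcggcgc
Top2a, chr11:99024190-99024439, minus strand: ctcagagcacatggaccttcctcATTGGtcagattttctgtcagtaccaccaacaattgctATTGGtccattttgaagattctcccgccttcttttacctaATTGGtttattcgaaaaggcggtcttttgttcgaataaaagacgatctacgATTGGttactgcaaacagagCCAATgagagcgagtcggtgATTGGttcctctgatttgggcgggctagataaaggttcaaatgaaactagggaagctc
Of the 30 cell cycle genes 25 had a promoter entry, and 19 of these (76.0%) held CCAAT on either strand, against 34.5% of all 27025 promoters and 36.7% of those of 10675 tested genes. The GC box GGGCGG, a site of Sp1, was found in 84.0% of them, against 58.7% for tested genes. TATAAA was found in 0 of the 25, against 6.72% for tested genes, a share so low that 0 of 25 does not set the list apart. Ccnb2 (7.30 ± 0.38) and Top2a (8.01 ± 0.49), shown here for their promoters after their values were seen, read 39.0 to 48.7 TPM and 33.9 to 121 TPM in MuSCs. A match describes letters only.

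Inhibitors of the cycle and targets of p53 were also mostly higher in MuSCs, 13 of 20, with 6 higher in muscle and a median of 1.29. Cdkn2a, which encodes the p16 and p19 inhibitors, read 422, 532 and 359 TPM in MuSCs and 0.65, 0.98 and 0 TPM in shams (9.03 ± 0.65, and 9.71 without sham 12). Gadd45a, a DNA damage response gene, was higher by 2.36 ± 0.21. Sesn1, a stress gene that restrains growth signalling (-3.52 ± 0.24), and the p53 target Ccng1 (-1.89 ± 0.25) were higher in muscle. Cell cycle drivers and these inhibitors were thus high in the same libraries.

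**Figure D3:**
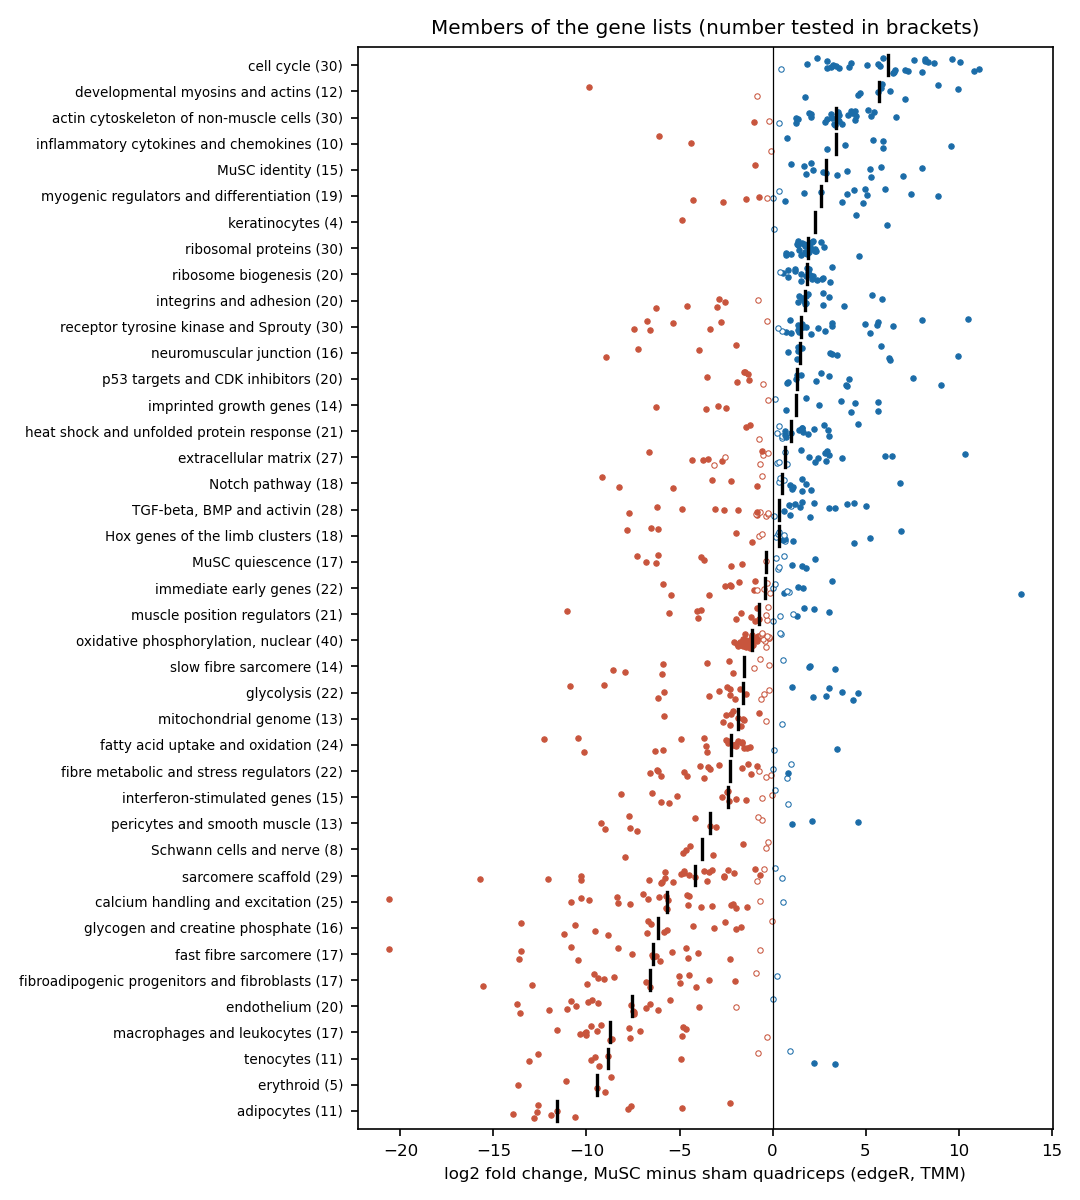
Log2 fold change, MuSC minus sham quadriceps, of each tested member of the 41 gene lists, ordered by list median (black bars), with filled points for members past the adjusted p of 0.05 and open points for the others, blue above 0 and red below. Medians run from 6.21 for cell cycle genes to -11.6 for adipocyte genes. With 0 counts in a group replaced by a floor of 3 counts, the adipocyte median is -8.2. The erythroid median is then -9.02. Replaced members are on the scale of library totals and the others on that of TMM, so the order of these medians is not settled. The quiescence, immediate early and muscle position lists, near 0, change sign with the scaling.

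The machinery of protein synthesis was higher in MuSCs throughout. All 30 ribosomal protein genes tested passed in that direction, 11 at least 4-fold, with a median of 1.89, and their summed TPM was 46800 to 70600 in MuSCs and 8610 to 13000 in shams. Rplp1, a stalk protein of the large subunit, read 5485, 9409 and 4410 TPM against 569, 905 and 687 TPM (2.75 ± 0.45, and 2.04 without MuSC 6). Processed copies of ribosomal protein genes are many, so reads may be shared between copies. Of 20 genes of ribosome biogenesis, 19 were higher in MuSCs, with a median of 1.88, among them Npm1 (2.39 ± 0.29), Ncl (1.53 ± 0.27) and Fbl (3.11 ± 0.25), proteins of the nucleolus. For a muscle-specific subunit the order was reversed: Rpl3l, which replaces Rpl3 in mature fibres, read 342, 371 and 360 TPM in shams with 1 count over all MuSC libraries, while Rpl3 itself read 962 to 1021 TPM in MuSCs and 18.2 to 37.9 TPM in shams (4.64 ± 0.34).

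Genes of the cytoskeleton and adhesion of crawling cells followed. Of 30 genes of the non-muscle actin cytoskeleton, 27 were higher in MuSCs, 23 at least 4-fold, with a median of 3.43 and a summed TPM of 26500 to 29000 against 1680 to 1850. Tmsb10, a thymosin that binds free actin, read 7539, 8122 and 5859 TPM against 42.3, 70.8 and 39.0 TPM (6.62 ± 0.44). Actg1, cytoplasmic gamma-actin (3.73 ± 0.29), and Vim, the intermediate filament vimentin (4.48 ± 0.40), were higher too. Of 20 integrins and adhesion genes, 14 were higher in MuSCs and 5 in muscle, with a median of 1.72. The tetraspanin Cd63 was higher by 3.02 ± 0.32 and Cd81 by 1.80 ± 0.25. Itga1 (-6.28 ± 0.48, and -7.42 without MuSC 5) and Itga4 (-4.62 ± 0.33), alpha subunits also carried by vessel and blood cells, were higher in muscle.

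Contractile proteins of fast fibres made up much of the sham transcriptome. Of 17 fast fibre genes, 16 were higher in muscle, all 16 at least 4-fold, with a median of -6.42, and their summed TPM was 132000 to 183000 in shams and 4140 to 11800 in MuSCs. Tnnt3, fast troponin T, read 28735, 36206 and 30710 TPM in shams and 723, 803 and 367 TPM in MuSCs (-6.24 ± 0.57). Tnnc2, fast troponin C, was lower in MuSCs (-7.53 ± 0.70), as was Tpm1, alpha-tropomyosin (-3.99 ± 0.40), which still read 1134 to 1649 TPM there. Mybph, a myosin-binding protein chosen here after its values were seen, was the member that did not pass, at 97.9 to 264 TPM in MuSCs and 167 to 237 TPM in shams (edgeR's quasi-likelihood test, adjusted p = 0.134). Its difference was -1.05 and passed without MuSC 6, and was 0.06 with library totals. Pvalb, parvalbumin, the calcium buffer of fast fibres, read 10261, 17706 and 12318 TPM in shams with no count in any MuSC library, at least 148000-fold.

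The letters CAGCTG are an E-box, a site for myogenic factors. The promoters below, of the fibre markers Myh4 and Acta1 and of Mylpf and Atp2a1, the fast regulatory light chain and the fast calcium pump, give the 250 bases before the start site, 5′ to 3′ on the gene's strand, from RefSeq on GRCm38.p6. Capitals mark the E-box, the letters TATAAA, the site of the factor MEF2 and the CArG box of serum response factor. All 4 hold the E-box, which is not so of the fast fibre list as a whole.
Myh4, chr11:67237562-67237811, plus strand: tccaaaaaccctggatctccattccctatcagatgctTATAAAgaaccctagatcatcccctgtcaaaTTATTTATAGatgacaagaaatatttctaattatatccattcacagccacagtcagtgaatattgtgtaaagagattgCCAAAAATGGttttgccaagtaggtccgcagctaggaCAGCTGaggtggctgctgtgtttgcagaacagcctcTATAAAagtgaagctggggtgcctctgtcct
Acta1, chr8:123894776-123895025, minus strand: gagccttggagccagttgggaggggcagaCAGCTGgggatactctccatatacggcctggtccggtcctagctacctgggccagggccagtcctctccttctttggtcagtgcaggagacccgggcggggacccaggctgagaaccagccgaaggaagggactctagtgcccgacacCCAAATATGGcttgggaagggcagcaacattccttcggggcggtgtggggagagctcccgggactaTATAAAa
Atp2a1, chr7:126463074-126463323, minus strand: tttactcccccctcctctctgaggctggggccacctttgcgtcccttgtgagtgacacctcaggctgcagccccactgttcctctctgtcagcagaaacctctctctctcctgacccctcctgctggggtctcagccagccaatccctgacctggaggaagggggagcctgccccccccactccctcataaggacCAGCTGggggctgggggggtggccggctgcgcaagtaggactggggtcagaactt
Mylpf, chr7:127211358-127211607, plus strand: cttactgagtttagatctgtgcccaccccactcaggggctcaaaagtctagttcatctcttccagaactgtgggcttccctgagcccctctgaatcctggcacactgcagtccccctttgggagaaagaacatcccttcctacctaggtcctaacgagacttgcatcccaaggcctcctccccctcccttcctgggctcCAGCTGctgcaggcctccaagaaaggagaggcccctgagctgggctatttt
In Myh4 a TATAAA on the other strand lies inside the MEF2 match, and another TATAAA begins 31 bases before the start site. CAGCTG, which reads the same on both strands, was found in 6 of the 12 fast fibre promoters with an entry (50%), against 12.8% of all 27025 promoters, 12.2% of those of genes at least 4-fold higher in MuSCs and 15.6% of those at least 4-fold higher in muscle. The MEF2 site was found in 3 of the 12 (25%), against 3.01% of all, 1.40% of the MuSC set and 3.89% of the muscle set. The median number of CG pairs in these windows was 16 for all tested genes and also for the MuSC set, and 10 for the muscle set. It was 14 for genes at least 16-fold higher in MuSCs and 6 for those at least 16-fold higher in muscle.

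Slow fibre genes were divided. Of 14 tested, 7 were higher in muscle, 3 in MuSCs and 4 did not pass, with a median of -1.55. Mybpc1, slow myosin-binding protein C, was lower in MuSCs (-5.90 ± 0.39), and Myl2, the slow regulatory light chain, read 492, 232 and 685 TPM in shams and 1.10 to 4.88 TPM in MuSCs (-7.95 ± 0.58, and -8.62 without MuSC 5). Tnnc1, the troponin C of slow and cardiac muscle, went the other way at 1391, 1468 and 544 TPM in MuSCs against 211, 86.5 and 282 TPM (1.99 ± 0.54, not passing with all 15 libraries in the fit at 1.98), as did the light chain Myl6b (3.38 ± 0.56). Sham 12 was the lowest sham for both Myl2 and Tnnc1.

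Scaffold, calcium and energy genes of the fibre were higher in muscle. Of 29 sarcomere scaffold genes, 25 were higher in muscle, with a median of -4.15, among them Neb, nebulin, the ruler of the thin filament (-5.96 ± 0.49), and Tcap, the cap of titin (-6.66 ± 0.57, and -7.33 without MuSC 6). Of 25 genes of calcium handling and excitation, 23 were higher in muscle, with a median of -5.68. Atp2a1, the fast calcium pump, read 10636, 15315 and 12860 TPM in shams and 30.3, 15.3 and 10.4 TPM in MuSCs (-10.83 ± 0.66), and Casq1, the calcium store protein, differed by -8.31 ± 0.60 (-8.92 without MuSC 5). Of 16 genes of glycogen and creatine phosphate, 15 were higher in muscle, with a median of -6.18. Pygm, muscle glycogen phosphorylase, read 2682, 3195 and 3103 TPM against 60.7, 55.1 and 26.7 TPM (-6.75 ± 0.47).

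Oxidative genes differed far less. Of 40 nuclear genes of oxidative phosphorylation, 28 were higher in muscle, 1 of them at least 4-fold, and none in MuSCs, with a median of -1.12 (-0.37 with library totals). Their summed TPM was nearly the same, 18100 to 22100 in MuSCs and 19800 to 22500 in shams. The mitochondrial genome had 11 of 13 genes higher in muscle, with a median of -1.84. Copies of mitochondrial genes on chromosome 1, such as Gm28661 and Gm28437, were among the most abundant genes listed, so reads may be divided between copy and source. Of 24 genes of fatty acid uptake and oxidation, 22 were higher in muscle, with a median of -2.23, including Fabp3, which carries fatty acids in muscle (-3.50 ± 0.41), and Hadhb, of the last steps of beta-oxidation (-2.09 ± 0.20). Of 22 glycolysis genes, 12 were higher in muscle and 7 in MuSCs.

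Muscle-typical and widespread isoforms were exchanged for many enzymes and pumps. The 31 pairs each set a gene typical of muscle beside a widespread gene of like function. The share of the muscle member in the pair's summed TPM was lower in every MuSC library than in every sham for 28 pairs. The majority member switched in 17. Among all 14548 genes tested, the TPM of 10481 did not overlap between the groups, in either direction. The pairs were chosen with earlier results of these data known. For phosphoglycerate mutase, an enzyme of glycolysis, Pgam2 made up 15%, 13.2% and 5.27% of the pair with Pgam1 in MuSCs and 99.4% to 99.6% in shams. For enolase, Eno3 made up 43.5% to 48.8% of the pair with Eno1 in MuSCs and 97.9% to 98.3% in shams. Pgam1 (4.58 ± 0.32) and Hk1, the widespread hexokinase (4.33 ± 0.22), were higher in MuSCs.

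The same held for subunits of cytochrome c oxidase, the last complex of the respiratory chain. Cox6a2 made up 2.70% to 5.46% of its pair with Cox6a1 in MuSCs and 93.7% to 97.9% in shams. Cox8b made up 3.40% to 8.03% of its pair with Cox8a against 93.2% to 96.4%, and Cox7a1 5.44% to 7.07% of its pair with Cox7a2 against 71.7% to 75.3%. The adenine nucleotide translocase Slc25a4, which exports ATP from mitochondria, made up 37.1% to 40.5% of its pair with Slc25a5 in MuSCs and 97.5% to 98.7% in shams. None of these subunits is among the 40 oxidative phosphorylation genes summed above.

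Other pairs switched almost entirely. Eef1a2, the elongation factor of muscle and neurons, made up no more than 0.00579% of its pair with Eef1a1 in MuSCs and 75.7% to 84.5% in shams. The tubulin Tuba8 made up no more than 0.00353% of its pair with Tuba1b against 75.9% to 88.3%, and the sodium pump subunit Atp1b2 no more than 0.197% of its pair with Atp1b3 against 88.4% to 91.9%. Glucose transport turned from Slc2a1 to Slc2a4, the insulin-responsive carrier, with 6.32% to 12.1% in MuSCs and 98.3% to 99% in shams. Carnitine palmitoyltransferase, the gate for fatty acids into mitochondria, had 6.55% to 7.15% Cpt1b in MuSCs and 97.5% to 98.4% in shams, and Cpt1a was higher in MuSCs (3.45 ± 0.23). Lactate dehydrogenase was a pair that did not separate the groups, with Ldha at 88.0% to 95.4% of its pair with Ldhb in MuSCs and 86.0% to 95.1% in shams.

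**Figure D4:**
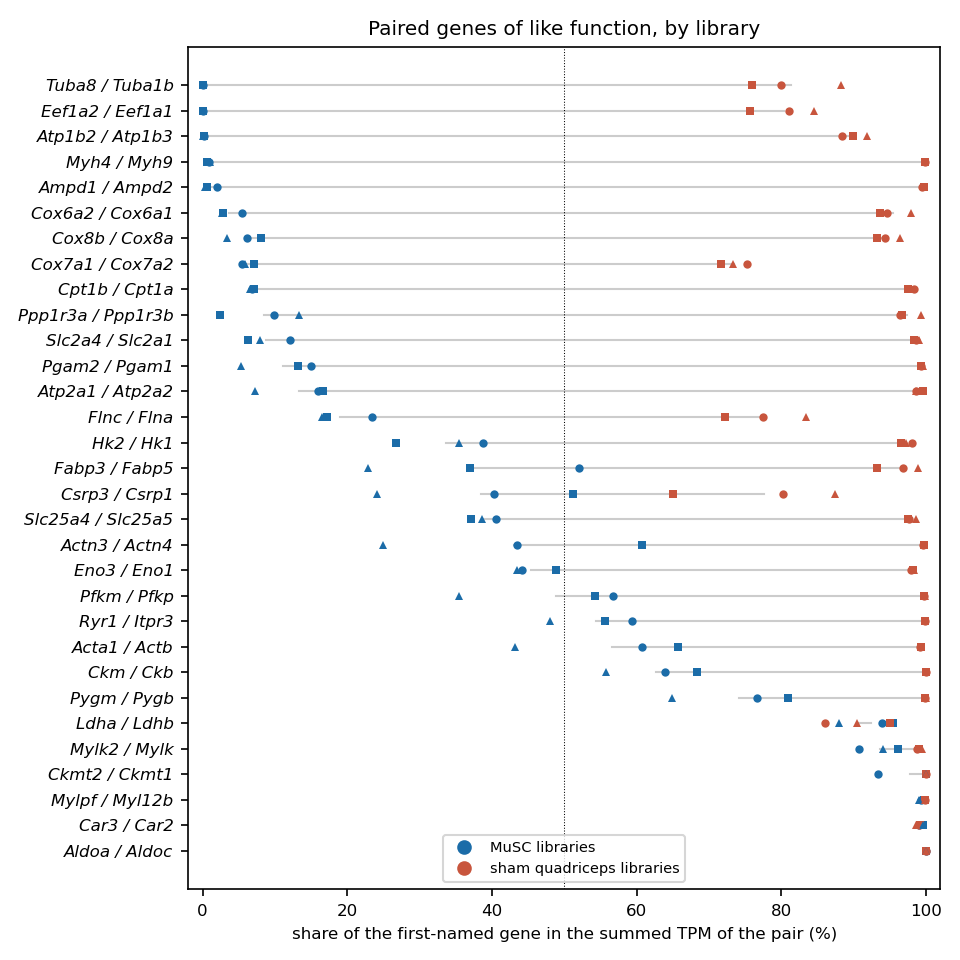
Share (%) of the first-named, muscle-typical gene in the summed TPM of each of 31 pairs, with 1 point per MuSC (blue) and sham quadriceps library (red), circle, square and triangle for mice 5, 6 and 11 or 3, 12 and 192, and a grey line between group means. Shams lie at 65.1% or above throughout, while MuSCs range from near 0% for Tuba8 and Eef1a2 to near 100% for Aldoa, Mylpf and Car3.

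Most marker genes of fibroblasts, endothelium, leukocytes and fat were higher in muscle, while those of pericytes and tendon were mixed. Of 17 genes of fibroadipogenic progenitors and fibroblasts, 15 were higher in muscle, with a median of -6.58, or -5.95 with genes at 0 counts set to their bound. Dcn, decorin, read 162, 232 and 159 TPM in shams and had no count in MuSCs, at least 4480-fold lower. Ly6a (Sca-1) read 3.55 to 6.04 TPM in MuSCs and 40.9 to 78.8 TPM in shams, and Gsn, gelsolin, which also severs actin in other cells, read 112 to 130 TPM and 164 to 474 TPM (-2.01 ± 0.38, not passing with limma on log2(TPM + 1) of all genes at -1.03). The summed TPM of the list was 129 to 161 in MuSCs and 585 to 1150 in shams. Col1a1 was at 7.03 TPM in MuSC 5 and at 0.04 and 0.02 TPM in MuSCs 6 and 11, against 7.75 to 16.2 TPM in shams (edgeR's quasi-likelihood test, adjusted p = 0.0671). Without MuSC 5 the difference in Col1a1 was -9.00 and passed.

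Endothelial genes were higher in muscle for 18 of 20 tested, with a median of -7.57 (-7.27 with bounds) and a summed TPM of 12.7 to 26.0 in MuSCs against 410 to 1130. Cdh5, the cadherin of endothelial junctions, read 16.5, 23.1 and 17.3 TPM in shams and 0 in MuSCs, at least 1130-fold lower, and Aqp1, a water channel, was lower by 6.59 on the log2 scale (-6.59 ± 0.52). Of 17 genes of macrophages and leukocytes, 16 were higher in muscle, with a median of -8.75 (-6.34 with bounds), and Ptprc, Adgre1 and C1qa had no count in MuSCs. Lyz2, lysozyme, read 20.5 to 48.1 TPM in shams and no more than 0.06 TPM in MuSCs (-10.03 ± 0.61). Cd68, a lysosomal protein, was the member that did not differ past the threshold, at 2.02 to 5.14 TPM and 2.06 to 3.77 TPM, although it passed without MuSC 6 (-1.26) and was 0.39 with library totals.

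All 11 adipocyte genes tested were higher in muscle, with a median of -11.60 (-8.20 with bounds), and Adipoq, Plin1 and Retn had no count in MuSCs. The shams varied widely: Adipoq, the hormone adiponectin, read 24.4, 92.9 and 7.66 TPM in mice 3, 12 and 192. The list summed to 222 to 1520 TPM in the shams. All 5 erythroid genes and 6 of 8 genes of Schwann cells and nerve were higher in muscle, and Hbb-bs, a beta-globin, had no count in MuSCs and 127 to 282 TPM in shams. Of 13 genes of pericytes and smooth muscle, 8 were higher in muscle and 3 in MuSCs, the latter including Acta2 and Tagln (2.12 ± 0.36), an actin-binding protein. This list summed to 790 to 1220 TPM in MuSCs and 191 to 257 TPM in shams. Of 11 tenocyte genes, 7 were higher in muscle and 2 in MuSCs, where Scx, a tendon transcription factor, read 73.3, 69.6 and 43.1 TPM against 3.24, 5.39 and 4.38 TPM (3.35 ± 0.33). Tnmd, the tendon protein tenomodulin, had no count in MuSCs. The tenocyte list summed to 44.9 to 75.9 TPM in MuSCs and 34.1 to 87.5 TPM in shams.

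Matrix, growth factor and signalling lists held members higher on either side. Of 27 matrix genes, 12 were higher in MuSCs, 6 in muscle and 9 did not pass, with a median of 0.66. Over all tested genes, 35.1% were higher in MuSCs and 33.4% in muscle. Timp1, an inhibitor of matrix proteases, read 1770, 1224 and 884 TPM against 0.67, 1.01 and 0.22 TPM (10.36 ± 0.52), and Thbs1, thrombospondin 1, 260, 95.5 and 394 TPM against 3.01, 2.50 and 1.46 TPM (6.04 ± 0.53). Lama4, a laminin chain of vessels, was higher in muscle (-6.63 ± 0.47, and -7.23 without MuSC 5). Of 30 genes of receptor tyrosine kinase signalling, 21 were higher in MuSCs and 6 in muscle, with a median of 1.51. Igf2, a growth factor made by differentiating myoblasts, read 958, 889 and 446 TPM against 8.21, 11.3 and 7.75 TPM (5.68 ± 0.42). Dusp4 (6.48 ± 0.28) and Etv4 (4.97 ± 0.26), which are induced by ERK signalling, were higher as well. Kdr, the VEGF receptor of endothelium, was higher in muscle (-7.45 ± 0.46).

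In the TGF-beta, BMP and activin list, 13 of 28 were higher in MuSCs and 8 in muscle, with a median of 0.34. These shares, and those of the Notch list, lie near the 35.1% and 33.4% of all tested genes, so neither count sets its list apart. Mstn, myostatin, which restrains muscle growth, read 21.3, 43.2 and 35.1 TPM in shams and 0.16 to 1.33 TPM in MuSCs (-6.22 ± 0.59, and -6.81 without MuSC 5). In the Notch list, 8 of 18 were higher in MuSCs and 6 in muscle, with a median of 0.52. Hes6, which promotes myogenic differentiation, read 968, 1004 and 506 TPM against 3.65, 4.50 and 5.29 TPM (6.85 ± 0.45). Dll4, a Notch ligand of endothelium, had 2 counts in MuSCs and read 2.02 to 3.06 TPM in shams.

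Imprinted growth genes were led by H19, a noncoding RNA beside Igf2, at 13310, 18659 and 9337 TPM in MuSCs and 588, 351 and 450 TPM in shams (4.22 ± 0.54, and 3.63 without MuSC 6). It was among the 8 most abundant genes of the MuSC libraries. Of 14 genes of this list, 8 were higher in MuSCs and 4 in muscle. Cdkn1c, the p57 inhibitor of resting cells, read 9.40 to 16.7 TPM in shams and 0.25 TPM in each MuSC library (-6.25 ± 0.48).

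Of 22 immediate early genes, 5 were higher in MuSCs and 9 in muscle, where 35.1% and 33.4% of all tested genes were. Their median of -0.39 turned positive with library totals (0.42) and with TPM (0.17). Fosl1, the AP-1 member Fra-1, read 62.3, 66.6 and 66.1 TPM in MuSCs with no count in shams, at least 1590-fold by library totals. Fos, the founding AP-1 member, was at 1.56 to 2.82 TPM in MuSCs and at 56.9, 79.5 and 9.91 TPM in shams (-5.47 ± 0.74), and the nuclear receptor Nr4a1 was lower in MuSCs (-5.91 ± 0.44). Myc was higher in MuSCs (3.19 ± 0.41, and 3.86 without sham 12). Of 21 genes of heat shock and the unfolded protein response, 14 were higher in MuSCs and 2 in muscle, with a median of 0.97. Of 20 cytokine and chemokine genes, 10 were too low to test, among them Il6, Tnf and Ccl2. Of the 10 tested, 7 were higher in MuSCs and 2 in muscle. Csf1, the growth factor of macrophages, read 327, 218 and 303 TPM in MuSCs against 3.49, 4.31 and 3.89 TPM (5.42 ± 0.23). Cxcl12, a chemokine of stromal cells, was higher in muscle (-4.36 ± 0.24).

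None of 15 interferon-stimulated genes was higher in MuSCs and 11 were higher in muscle, with a median of -2.39. Ifi27 read 9.07 to 12.5 TPM in MuSCs and 36.2 to 69.1 TPM in shams (-2.70 ± 0.35). In the second set of libraries, MuSCs after transplantation against transplanted quadriceps, the median of this list was 0.59. Whether the lists differ between both sets was not tested.

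Among genes that mark the position of a muscle in the body, 18 Hox genes were tested, of which 6 were higher in MuSCs, 5 in muscle and 7 did not pass. Over all tested genes the shares were 35.1% and 33.4%, so the Hox counts are near the background. Hoxc10, a gene of the hindlimb, was present in both at 21.2 to 32.9 TPM in MuSCs and 45.7 to 70.1 TPM in shams (-1.94 ± 0.21), and Hoxa7 was higher in MuSCs (1.09 ± 0.21). Hoxd9 read 0.09, 0.03 and 0 TPM in MuSCs and 2.51, 2.02 and 3.18 TPM in shams (-6.52 ± 0.67, and -7.56 without MuSC 5), and Hoxd4 had no count in MuSCs and 62 in shams, at least 21.3-fold lower. Of 21 other regulators of muscle position, 4 were higher in MuSCs and 11 in muscle, with a median of -0.73 that turned positive with library totals (0.07) and with TPM (0.04). Tbx15, a T-box factor of glycolytic fibres, read 82.4, 110.6 and 102.2 TPM in shams and 8.24 to 15.1 TPM in MuSCs (-3.85 ± 0.21), while Pax3, the paralogue of Pax7, was higher in MuSCs at 1.31 to 5.90 TPM (3.02 ± 0.49).

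Some of the largest differences lay outside these lists. On the MuSC side the rule for large differences named Dynap, Cldn4, Sct, Fosl1, Igfbp2, Hmga2, Cdk1, Msln, Ccnb1, Gal, Spp1 and Timp1. Dynap had no count in shams and 374, 503 and 490 TPM in MuSCs, at least 7130-fold by library totals, a fold that TMM scaling would make smaller. Cldn4, a claudin of epithelial tight junctions, read 59.9, 46.4 and 134 TPM with no count in shams, and Sct, the gut hormone secretin, 336, 574 and 110 TPM, also with none. Spp1, osteopontin, a secreted matrix protein, read 2455, 1979 and 2291 TPM against 1.30, 1.12 and 0.52 TPM (10.57 ± 0.41). Igfbp2, which binds insulin-like growth factors, read 775, 852 and 649 TPM with 3 counts in all shams, and Hmga2, a chromatin protein of growing and embryonic cells, 243, 154 and 277 TPM against no more than 0.06 TPM (11.52 ± 0.36). Msln, mesothelin, stood at 288 to 588 TPM against 0.04 to 0.68 TPM (10.98 ± 0.49).

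On the muscle side the rule named Pvalb, Myoz3, Dcn, Tmem233, Asb11, Scn4b, Rpl3l, Ces1d, Tspan8, Ighm, Cfd and Hbb-bs. Myoz3, a protein of the Z-disc, read 84.5, 112 and 91.4 TPM in shams, with no count in MuSCs, at least 4960-fold. Asb11 (at least 2990-fold) and Tmem233 (at least 3720-fold) had no count in MuSCs either. Scn4b, a beta subunit of sodium channels, read 96.3 to 113 TPM in shams with 1 count in MuSCs. Ighm, the heavy chain of immunoglobulin M, had 4786 counts in shams and none in MuSCs, and Cfd, adipsin from fat, read 24.3 to 350 TPM in shams, with sham 12 the highest. The set thus mixed genes of fibres with genes of fat, blood and stroma.

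Some abundant genes differed little between groups with TMM scaling. Among genes with an adjusted p of at least 0.05 and a 95% interval within -1 and 1, the most abundant was Tpt1, a translationally controlled tumour protein found in most cells, at 4380 to 5383 TPM in MuSCs and 2334 to 2875 TPM in shams (0.32 ± 0.27, and 1.08 with library totals). Pkm, the last enzyme of glycolysis, read 2238 to 2449 TPM and 1705 to 1865 TPM (-0.18 ± 0.29), and Cox4i1, a subunit of cytochrome c oxidase, 1074 to 1741 TPM and 934 to 1076 TPM (-0.20 ± 0.34). Both turned positive with library totals, at 0.58 and 0.54, whereas without MuSC 6 Cox4i1 passed as lower in MuSCs (-0.76).

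The same contrast was then read in libraries that the comparison above did not use. Of 15066 genes tested there, 5478 were called higher in MuSCs and 5122 higher in muscle. Of the 2363 genes at least 4-fold higher in MuSCs, 2264 were tested in MuSCs after transplantation against transplanted quadriceps, and 2237 were called there in the same direction, 2128 at least 4-fold, with 2 in the opposite direction. Of the 2679 genes at least 4-fold higher in muscle, 2664 were tested, 2531 were called in the same direction, 2416 at least 4-fold, and 26 were opposite. These libraries come from the same deposited tables and, for MuSCs, from the same mice. The mice that gave MuSCs also gave some of the transplanted quadriceps, and the test did not pair libraries by mouse. Of 4190 genes at least 4-fold different that could be tested between both muscle tables, 729 were called between the tables, and 10 at least 4-fold.

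**Figure D5:**
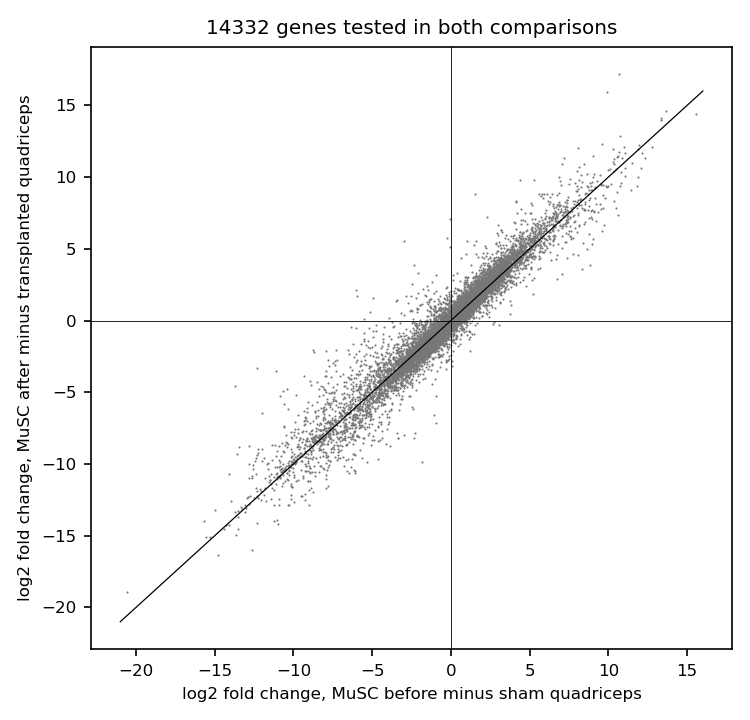
Log2 fold change of 14332 genes in MuSCs before transplantation minus sham quadriceps (horizontal) and in MuSCs after transplantation minus transplanted quadriceps (vertical), 1 point per gene, with the line of equal change. The points lie along the line over the whole range, and 13275 have the same sign in both.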

How the data were processed

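RNA was measured by bulk RNA sequencing, with Trizol extraction and NEBNext Ultra libraries per the labels' protocols. The authors deposited 3 tables of 56953 genes, 1 of MuSC libraries and 2 of muscle (shams 3 and 192 in one, sham 12 in the other). Per the file headers, each library has a column of estimated counts, one of TPM and one of FPKM. For testing, the authors' estimated counts were rounded to whole numbers. The authors' TPM values are scaled for gene length and library total, and were printed as levels; the deposited FPKM values were not used. The sources used here do not name an aligner or quantifier. GRCm38 and mm10 stand in the submitters' processing notes, whereas gene coordinates in the tables differed from that build, so none of them is printed. Another 3 columns matched no sample's labels and were not used.

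MuSCs before transplantation (n = 3) were tested against sham quadriceps (n = 3) with edgeR 4.0.16 (R 4.3.3), quasi-likelihood, on genes kept by filterByExpr (minimum count 10), with TMM scaling and Benjamini-Hochberg adjustment, 2-sided, at 0.05. The size rule asked for a log2 fold change of at least 2 in either direction. P-values measure the spread between these samples. Where a group had no count, the fold was computed with 3 counts summed over its libraries as the floor, which covers counting error only. These folds used library totals. With TMM scaling those on the MuSC side would be smaller and those on the muscle side larger. List medians with bounds combine these folds with the TMM values of the other members. Chi-square per degree of freedom between libraries of a group was 26.93 to 157.65, so none was a duplicate. Only the edgeR fit was checked on simulated counts, with 200 genes changed, far fewer than the 9970 called here. That check does not cover scaling where most genes differ, or the floors, lists and pairs.

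The groups, the 41 gene lists and the 31 pairs were chosen with earlier results of these data known, so list counts describe and were not tested. Results of some genes are not reported here. Named were the markers, the 12 genes with the largest differences in each direction (called, libraries not overlapping, mean of at least 50 TPM in the higher group, no predicted genes, pseudogenes or mitochondrial genes), the 8 most abundant genes of each group, per list 3 abundant members and up to 2 against its majority, the pairs, 6 abundant genes alike in both, and sex-linked genes. Of symbols on several rows, the row with most counts was used. Promoters came from RefSeq (GRCm38.p6), searched on both strands in the 250 bases before the start site. Gene types and lengths came from GENCODE M21, in which 52029 genes matched by identifier. Alternatives were RLE, upper-quartile and library-total scaling, no mitochondrial genes, no filter, DESeq2 1.42.0, limma 3.58.1 on log2(TPM + 1) and log2(TPM + 0.1), all 15 libraries in the fit, and each library left out in turn.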

Additional observations from a re-analysis of the deposited data

How the results depend on the processing

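The count of 9970 called genes stayed between 8962 and 11569 over all alternatives, and the 5042 called at least 4-fold between 3383 (limma on log2(TPM + 1)) and 6758 (no filter on low counts). Leaving out a library gave 8962 to 10645 and 5187 to 5609, with 10645 without MuSC 6 and 9368 without sham 12, which leaves the shams of 1 table. DESeq2 called 10157 and 5048. The split moved with the scale: 51.3% of calls were higher in MuSCs with TMM, 48.1% with upper-quartile factors, 70.1% with library totals and 68.5% with limma on log2(TPM + 1). The mouse numbers do not pair MuSCs with sham muscle, which share no mouse. The titles give mice 5, 6 and 11 for both MuSCs and transplanted quadriceps. Between MuSCs before transplantation and these muscles, deviations from the group means correlated at 0.03, -0.13 and -0.06. With so few libraries these values cannot show whether the samples pair. A fit with the mouse number as a block called 9702 genes, where the fit without it called 10262.

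Reversals were found among differences near 0. With library totals the values were 0.58 for Pkm, 0.54 for Cox4i1, 0.39 for Cd68 and 0.06 for Mybph, and the list medians 0.42 for quiescence, 0.42 for immediate early genes and 0.07 for muscle position regulators. With limma on log2(TPM + 1) they were 0.39 for Pkm, 0.33 for Cox4i1 and 0.11 for Cd68, and 0.37, 0.17 and 0.04 for these 3 lists. For the 3 genes the values were the same without a filter. With log2(TPM + 0.1) they were 0.39, 0.33 and 0.13. Leaving out a library turned Cd68 (-1.26 to 0.02) and brought Cox4i1 to between -0.76 and 0.00. Library totals use the same counts without TMM factors, which shifts nearly all values by a like amount and puts the median gene at 0.79. With log2(TPM + 1) the median gene stood at 0.55. The cause of the reversals outside library totals was not tested. At 17094753 to 21255066 counts per library, a gene kept out by the minimum count of 10 could not be tested.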

Other observations

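Regulators of fibre mass and metabolism, a list that shares Trim63, Mstn and Fst with lists above, were higher in muscle in 15 of 22 genes, with a median of -2.27 and 1 member higher in MuSCs. The ubiquitin ligases of muscle atrophy were among them. Fbxo32 (atrogin-1) read 61.2, 94.4 and 71.2 TPM in shams and 2.26, 0.62 and 1.41 TPM in MuSCs (-6.56 ± 0.39), and Trim63 (MuRF1) 105, 169 and 120 TPM against 10.3, 7.26 and 6.15 TPM (-4.77 ± 0.29). Of 10 keratinocyte genes, 6 were too low to test, among them the markers Krt5 and Krt14. Of the 4 tested, 2 were higher in MuSCs and 1 in muscle. Dsp, desmoplakin of desmosomes, read 6.76, 2.03 and 6.24 TPM in MuSCs and 0.03 to 0.25 TPM in shams (6.13 ± 0.46), whereas Trp63, a factor of basal epithelium, was higher in muscle (-4.86 ± 0.37). Hspe1, a mitochondrial chaperone, was higher in MuSCs (1.62 ± 0.25).

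Of the genes at least 4-fold different, 316 of 2679 higher in muscle and 156 of 2363 higher in MuSCs were annotated as lincRNA, antisense or processed transcript, where 1030 of all 14548 tested were. Pseudogenes numbered 54 on each side and 327 of all tested, a like share in each. By gene length, median differences were 0.02, 0.11, 0.01 and -0.02 in 4 equal groups of genes from the shortest to the longest, and -0.19, 0.02, -0.03 and 0.09 without MuSC 6.

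The mitochondrial gene mt-Co2, subunit 2 of cytochrome c oxidase, lay far from the median of its list. It was chosen after its values were seen. It read 335, 77.3 and 478 TPM in MuSCs and 14357, 5892 and 9631 TPM in shams. The difference was -5.82 ± 0.66, where the median of the 13 mitochondrial genes was -1.84. How reads were divided between mt-Co2 and the copies of mitochondrial genes named above was not tested.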
